A study of Mus musculus with 9 samples.

Results

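Gene expression in mouse thymus tumors was set against normal thymus, with 3 tumor arrays and 3 normal thymus arrays out of the 9 arrays of the series. Both groups were chosen by the titles of the arrays, and the comparison covers 11671 genes whose signal passed a filter on dim values. The remaining 3 arrays hold thymus tumor described as XIST resistant (XIST is a noncoding RNA that coats and silences an X chromosome), and they are given only beside the tumor values. The labels give the tissue and the word tumor or resistant tumor, and state no strain, genotype, transgene, inducing agent, sex or age for any group. Whether arrays of 1 group stem from different animals is not stated, and the p-values therefore reflect array-to-array spread that may be technical. In bulk tissue, fewer cells of a type and less RNA per cell cannot be told apart, and this holds for every value below.

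Most cells of a normal thymus are developing T cells, held in a network of epithelial cells that produce chemokines, cytokines and self antigens. A thymocyte passes from a dividing precursor to a resting cell that is tested through its antigen receptor. That receptor acts through RAS, calcium and NF-kappaB pathways, while dividing cells also need nucleotides, amino acids, protein synthesis and mitochondria. The lists below follow these functions, from metabolism and protein synthesis to signalling, secreted factors and the cell surface.

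The labels were checked against defining markers. Cd3e, a chain of the T cell receptor complex, had signals of 1439, 1252 and 1490 in normal thymus and 1544, 1679 and 1541 in tumors, and it did not pass the test (log2 change 0.19 ± 0.14, SE, limma adjusted p = 0.316). Cd3g gave 1891, 1906 and 2064 in normal thymus and 2091, 2321 and 2548 in tumors, so both genes were bright on every array. Cd247, which encodes another chain of the complex, fell by 1.85 ± 0.10 (limma adjusted p = 1.62e-06). The coreceptor gene Cd4 fell from 968, 1068 and 1240 in normal thymus to 13.9, 24.2 and 14.4 in tumors. The summed signal of 67 thymocyte and T cell markers was 57767 to 60966 on the normal arrays and 33980 to 36125 on the tumor arrays. Of the 66 tested, 49 were called lower (74.2%) and 3 higher (4.55%), against 19.1% and 23.3% of all genes. Summed signals were 18164 to 19097 against 1362 to 1994 for 33 thymic epithelial markers, 4031 to 4937 against 1606 to 1681 for 13 B cell markers, and 8726 to 9910 against 2124 to 2967 for 23 dendritic, macrophage and neutrophil markers. In the last list the macrophage markers Cd68, Adgre1, Csf1r, C1qa, C1qb, Mrc1 and Lyz2 were not called, with changes from -0.66 to 0.14. For 20 fibroblast and endothelial markers the sums were 5128 to 5792 in normal thymus and 6044 to 10246 in tumors. Their members did not move together, with 11 called higher and 2 lower. Col1a1 rose by 3.90 ± 0.51, Pecam1 fell by 0.89 ± 0.20, and Dcn changed by -1.14 ± 0.44 without a call. No sum overlapped between the groups. In tumors the epithelial regulator gene Foxn1 was under the array median on all 3 arrays (19.8, 5.74 and 4.06), as were 18 of the 33 epithelial markers, while the keratin gene Krt5 was at 98.6, 50.4 and 5.72.

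Signals are in arbitrary units on a linear scale, and changes are on the log2 scale after values under 1 were set to 1. Array medians over all probe sets were 13.9 to 25.8. A gene under the median of its array on all 3 arrays of a group has only a bound there, and its change is then written as "at least N-fold". Of the 6 arrays compared, normal thymus 1 and tumor 1 lacked signal on the poly-A spike-in control rows (2.71 and 2.01) and the other 4 had it (141 to 154). For Actb, the 3' over 5' signal ratio, which rises as RNA degrades, was 1.63 to 1.91 in normal thymus and 1.91 to 3.16 in tumors, highest in tumor 2. The control values of tumor 1 were read after its control rows were sorted by row name. That order was kept, of several tried, because it correlated best with the other arrays.

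By limma, 4943 of the 11671 genes were called at a Benjamini-Hochberg adjusted p under 0.05, which is 42.4%. Of all tested genes, 23.3% (2714) were higher in tumors and 19.1% (2229) were lower, and the 3 tumor and 3 normal arrays did not overlap in 55.3%. Increases were more frequent and, in the deposited signal, smaller. The median size of a called increase was 0.91 and that of a called decrease 1.22. These sizes are fitted changes, also where a group was dim and its change is only a bound. At least 3 on the log2 scale was reached by 145 increases and 355 decreases, and at least 5 by 12 increases and 84 decreases. Among the called genes, 302 of the increases started from a normal group under the array median on all 3 arrays, and 465 of the decreases ended there in tumors. The median change of all genes was 0.05, and it became 0.24 when the array medians were set equal, a scaling under which 1266 genes were higher (10.8%) and 990 lower (8.48%). The sign of changes up to about the size of this shift depends on the scaling. Calls of larger changes were lost under it too, such as those of Aars and Vars (1.20 each). Array medians also differed within groups (25.8, 17.8 and 17 in normal thymus, 24.8, 13.9 and 15.4 in tumors). A lost call therefore does not show that a change is absent. The sizes above were not computed under this scaling, and their order may depend on it.

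**Figure D1:**
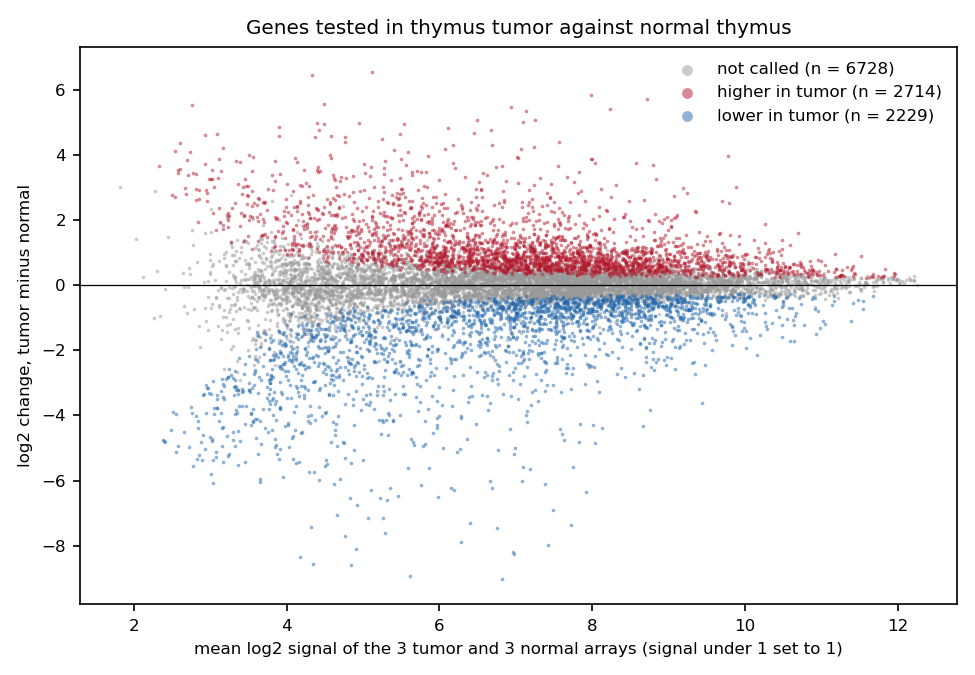
Each point is 1 of the 11671 genes tested, with the mean log2 signal of the 6 arrays on the horizontal axis and the log2 change (tumor minus normal) on the vertical axis. Red and blue points passed limma's test (2714 higher, 2229 lower), and decreases reach further from 0 than increases, with 84 against 12 genes at 5 or more in fitted change, dim groups included.

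The largest increases had various functions. Here and in the lists below, the naming rule took only called genes whose tumor and normal arrays did not overlap. Their separation is therefore no result. Fbp1 encodes the gluconeogenic enzyme fructose bisphosphatase, and it rose from 28.9, 33.5 and 38.2 on the normal arrays to 1733, 1670 and 2422 on the tumor arrays. Every tumor array was far above every normal array. Rnd2, which encodes a small GTPase, was at 56.6, 54.2 and 63.1 in normal thymus and 2682, 3193 and 3341 in tumors, the brightest tumor signal among the 14 named increases. Stc1, which encodes a secreted glycoprotein hormone, went from 33.9, 17.4 and 10.5 to 892, 922 and 678. Its normal arrays were spread widely, and the tumor arrays lay well above all of them. Uaca had 33.1, 27.2 and 20.2 in normal thymus and 1002, 902 and 762 in tumors, a change of 5.07 ± 0.24 (± SE over 3 and 3 arrays, limma adjusted p = 7.17e-07).

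Bst1 encodes a surface enzyme that acts on NAD. It had little spread in either group and rose from 16.6, 21.3 and 21 to 525, 496 and 594, a change of 4.78 ± 0.14 (limma adjusted p = 5.93e-08). Elovl3, an elongase of very long chain fatty acids, was under the array median in all normal arrays (23.6, 15.1 and 14.7) and at 380.0, 435 and 520.2 in tumors, at least 22.2-fold higher. Fgfbp1, a secreted carrier of fibroblast growth factors, was dim in normal thymus (12.2, 13.8 and 12.9) and reached 657, 328 and 235, at least 18.6-fold higher, with tumor 1 above the other tumors. Cpsf4l (4.41 ± 0.15), Sertad4 (4.31 ± 0.22) and Wdr25 (4.25 ± 0.14) rose as well.

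A pair of related genes stood among these increases. H2-T3 and H2-Bl, both nonclassical class I histocompatibility genes, were at 43.6, 17.6 and 18 and 27.6, 18.9 and 20.2 in normal thymus. In tumors H2-T3 was at 772, 825 and 749.6 and H2-Bl at 903, 929 and 883. These genes have close relatives, and cross-hybridisation between family members was not tested. Xist itself was among the 14, with 38.9, 17.4 and 18.5 in normal thymus and 507, 578 and 332 in tumors, a change of 4.31 ± 0.36 (limma adjusted p = 1.6e-05). In resistant tumors Xist was at 401, 274 and 544, which overlapped the tumor values. Over the 338 tested genes of the X chromosome the median change was -0.06, with 61 higher (18%) and 76 lower (22.5%), and it was 0.13 with equal array medians, so its sign depended on the scaling. The Y-linked gene Eif2s3y had 499.7, 523 and 464 in normal thymus and 342, 322 and 346 in tumors, and Kdm5d had 165, 204 and 178 and 97, 94.4 and 109.6, above the array median on all 6 arrays.

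The largest decreases outside the thymocyte and epithelial marker lists included signalling genes of lymphocytes. Rasgrp1, a diacylglycerol-activated exchange factor that switches RAS on below the T cell receptor, fell from 1459, 1297 and 1385 to 17, 21.2 and 22.4, a change of -6.10 ± 0.18 (limma adjusted p = 5.93e-08). All tumor arrays were close to the array median. Sla, an adaptor that dampens receptor signalling, went from 1278, 1602 and 1585 to 30.9, 29.2 and 33.5. The receptor segment gene Trav9d-3 was at 2257, 2062 and 2305 in normal thymus and 40.5, 23.3 and 20.2 in tumors. Ltb, which encodes the membrane anchor of lymphotoxin, fell from 1154, 1472 and 1656 to 39.1, 47.4 and 63.7, and Lsp1, an actin-binding protein of leukocytes, from 1187, 1168 and 1258 to 36.6, 32.5 and 65.

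Other large decreases followed. Mndal, a member of an interferon-inducible gene family, was at 865, 905 and 895 in normal thymus and 13.8, 15.2 and 8.07 in tumors. Gbp8, a guanylate-binding protein, fell by 5.58 ± 0.25 and Wdr78 by 5.00 ± 0.18. Dsp, the desmosomal linker desmoplakin, dropped from 1343, 935 and 871 to 86.8, 22.2 and 4.43, and its tumor arrays spread over a wide range with tumor 1 highest. Jakmip1, Igha, Dgkeos, Nebl and Chrna9 were under the array median on all tumor arrays and were at least 68.6-fold, 37.3-fold, 34.5-fold, 31.2-fold and 26.4-fold lower. Chrna9, a nicotinic receptor subunit, was at 441, 469 and 472 in normal thymus and 2.71, 3.18 and 3.9 in tumors. Cbr2, a carbonyl reductase, fell from 882, 1050 and 1190 to 17.1, 28.5 and 115, with tumor 3 above the other tumors. Igha encodes the constant region of an antibody heavy chain, and its fall stood beside the lower B cell marker sum given above, whose part in it was not tested.

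**Figure D2:**
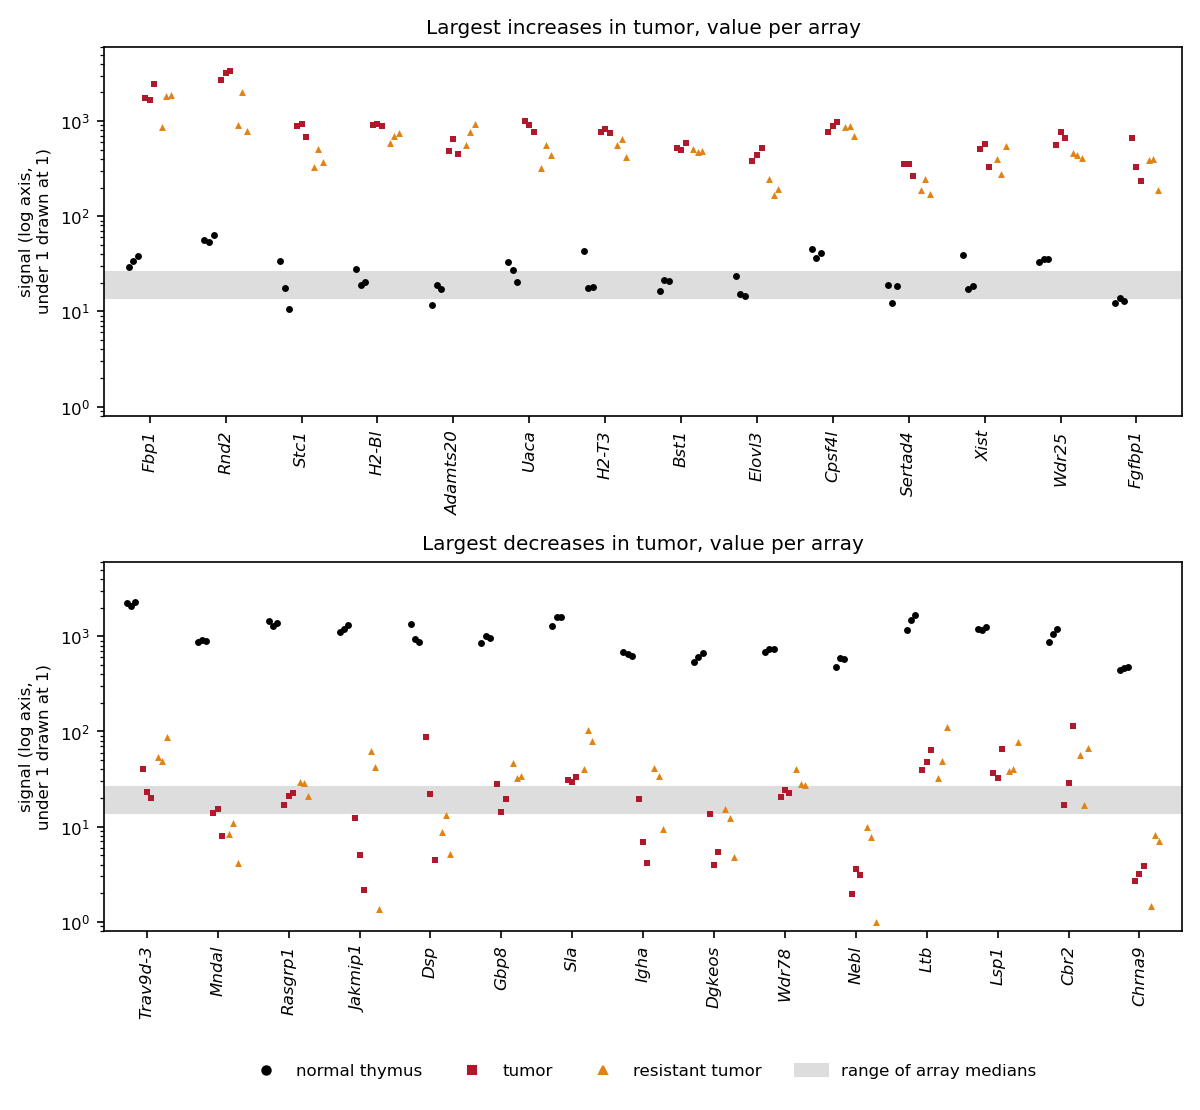
Signal on each array (log axis) of the 14 largest increases and 15 largest decreases chosen by the naming rule, as black circles for normal thymus, red squares for tumor and orange triangles for resistant tumor. The grey band is the range of array medians, 13.9 to 25.8, and tumor and normal arrays do not overlap in any of these genes because the rule required it.

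The lists of metabolism and protein synthesis differed in direction. Counts of every list below are to be read beside the 23.3% higher and 19.1% lower among all genes. A list with calls in both directions near these shares does not differ from genes at large. Of 21 aminoacyl-tRNA synthetase genes, whose products load amino acids onto transfer RNA, 16 were higher and 0 lower, against 23.3% and 19.1% of all genes. The list had a median of 0.80, beside 0.05 for all genes, and under equal array medians 3 of the 21 were called. Yars, the tyrosine enzyme, was at 109.7, 120.2 and 132 in normal thymus and 279, 325 and 341 in tumors (1.38 ± 0.14, limma adjusted p = 6.71e-05). Aars, the alanine enzyme, rose from 253, 325 and 349 to 526, 856 and 779.6, Vars from 293, 379 and 447 to 629.7, 1029 and 923 and Lars from 256, 327 and 310.3 to 471, 679 and 665, and tumor 1 was the lowest tumor array in each. With equal array medians the calls of Aars, Vars and Lars did not pass.

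Translation factors moved less. Among 24 initiation and elongation factors 11 were higher and 0 lower, with a median of 0.30 (2 higher with equal array medians). Eif4ebp1, which holds back cap-dependent initiation until it is phosphorylated, stood out at 123, 132 and 137 in normal thymus and 629.8, 570.5 and 744 in tumors (2.31 ± 0.22, limma adjusted p = 3.91e-05). Eif2b3, a subunit of the exchange factor of initiation, rose by 1.37 ± 0.31, Eif3b by 0.91 ± 0.18 and Eif1a by 0.87 ± 0.21, of which Eif2b3 and Eif3b lost their calls with equal array medians. By contrast, SR and hnRNP splicing factors hardly moved, with 2 higher (4 with the replicate block) and 2 lower of 28 and a median of -0.03 that became 0.16 with equal array medians. Srsf9 (0.48 ± 0.09) and Hnrnpd (0.38 ± 0.08) were higher and Srsf5 (-0.33 ± 0.10) lower, all without a call under equal array medians, and the call of Srsf5 was lost without any 1 array other than tumor 3. Celf2, a splicing regulator, fell from 1501, 1366 and 1392 to 379.9, 531 and 423.

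Genes of the integrated stress response and the unfolded protein response changed in both directions. The integrated stress response lowers overall translation when amino acids run short and induces the transcription factor ATF4 and its targets. Among 24 genes of both responses 8 were higher and 6 lower, with a median of 0.17. Asns, which makes asparagine, went from 47.7, 26.2 and 30.1 in normal thymus to 235, 188 and 409.6 in tumors (2.97 ± 0.43, limma adjusted p = 0.000498). Atf5, a transcription factor of the same family as ATF4, went from 121, 86.4 and 94.7 to 599, 892 and 878, and Trib3, a pseudokinase that restrains ATF4, from 17.1, 19.9 and 15.6 to 111, 80.2 and 115. The tumor arrays were above the normal arrays throughout, which the naming rule required. Chac1, which degrades glutathione, was dim on the normal arrays (17.9, 9.4 and 9.46) and at 87.4, 95 and 84.7 in tumors, at least 4.48-fold higher. The following members were picked after their values were seen. The largest decrease was that of Vldlr, a lipoprotein receptor, from 46.8, 53.2 and 40 to 10.7, 9.97 and 23 (-1.78 ± 0.37, limma adjusted p = 0.00361). Atf4 rose by 0.86 ± 0.22 and Ddit3 did not pass the test (0.64 ± 0.24, limma adjusted p = 0.0576). The sensor kinase genes Ern1 and Eif2ak3 fell by 1.22 ± 0.26 and 0.77 ± 0.16, and the chaperone gene Dnajb9 fell by 0.87 ± 0.13, while Sdf2l1, another gene of the endoplasmic reticulum, rose by 0.71 ± 0.22. The calls of Atf4, Ern1, Eif2ak3, Dnajb9 and Sdf2l1 did not pass with equal array medians.

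Promoter sequences of the higher genes in the stress response, tRNA synthetase and glucose lists are shown where they hold TGATGNAA, the core of amino acid response elements, which was searched on both strands in the 250 bases before the annotated start. The stricter core TGATGCAA, which is 1 form of it, was searched first, and the wider form was added after seeing the data. Sequences and coordinates are those of RefSeq on GRCm38.p6, given along the strand of the gene in 60 bases, with the core or its reverse complement in capitals.
Asns: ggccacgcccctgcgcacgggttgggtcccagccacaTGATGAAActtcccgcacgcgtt
Chac1: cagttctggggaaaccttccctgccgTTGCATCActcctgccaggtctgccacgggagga
Aars: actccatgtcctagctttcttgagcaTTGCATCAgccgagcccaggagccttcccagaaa
Gars: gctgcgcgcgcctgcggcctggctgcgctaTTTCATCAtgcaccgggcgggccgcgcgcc
Pck2: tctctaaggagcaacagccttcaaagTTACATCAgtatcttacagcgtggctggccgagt

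The Aars and Chac1 windows held the reverse complement of the stricter core. In the window of Asns (chr6:7693210-7693269, minus strand) the core began 23 bases before the start, and in that of Gars (chr6:55037941-55038000, plus strand) 30 bases before it. Those of Aars (chr8:111033704-111033763, plus strand), Pck2 (chr14:55540137-55540196, plus strand) and Chac1 (chr2:119351023-119351082, plus strand) had it 112, 103 and 193 bases before the start. TGATGNAA was present for 1056 of the 27025 genes in the table (3.91%), for 224 of 9431 tested genes with a promoter there (2.38%) and for 48 of 2214 called higher (2.17%). In the stress response list 4 of 21 genes held it (19%), in the tRNA synthetase list 3 of 14 (21.4%) and in the glucose list 1 of 18 (5.56%). The lysosome list held it in 3 of 21 genes (14.3%) and the amino acid transporters in 2 of 14 (14.3%), but in 0 of the 4 transporters called higher. It lay before 51 of 1767 genes called lower (2.89%). A match of these letters is a description and no evidence of binding.

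Amino acid transporters moved in both directions, with 7 higher and 4 lower of 19 and a median of 0.40. Slc7a5, the light chain of the main transporter of large neutral amino acids, rose from 133, 151 and 151 to 808, 989 and 853 (2.60 ± 0.15, limma adjusted p = 2.06e-06). Slc6a9, a glycine transporter, was at 61, 25.6 and 29.3 in normal thymus and 145, 111 and 130.3 in tumors. Slc43a2, another carrier of large neutral amino acids, went the opposite way from 572, 469.6 and 485 to 103, 139 and 104, and Slc16a10, a carrier of aromatic amino acids, from 94.5, 89.4 and 113 to 43.6, 27.7 and 25.9. Neither pair of groups overlapped, which the naming rule required.

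Of 18 genes of glycogen, gluconeogenesis and the pentose phosphate pathway 10 were higher, 0 lower and 8 not called, with a median of 0.60. With equal array medians 4 were higher, and with the replicate number as a block 12 were higher and 1 lower. After Fbp1, Pck2, the mitochondrial enzyme that makes phosphoenolpyruvate, rose most, from 26.9, 30.9 and 33.3 to 206, 283 and 359 (3.19 ± 0.27, limma adjusted p = 1.71e-05). Khk, the fructose kinase, was at 46, 64 and 48.1 in normal thymus and 333, 478 and 399.8 in tumors. G6pc3, a glucose phosphatase, rose by 2.16 ± 0.69. Its signal was 8.31 on normal thymus 1 against 57.6 and 62.4 on the other normal arrays, the change was 1.21 without normal thymus 1, and the call did not pass without tumor 2, without tumor 3 or with equal array medians.

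**Figure D3:**
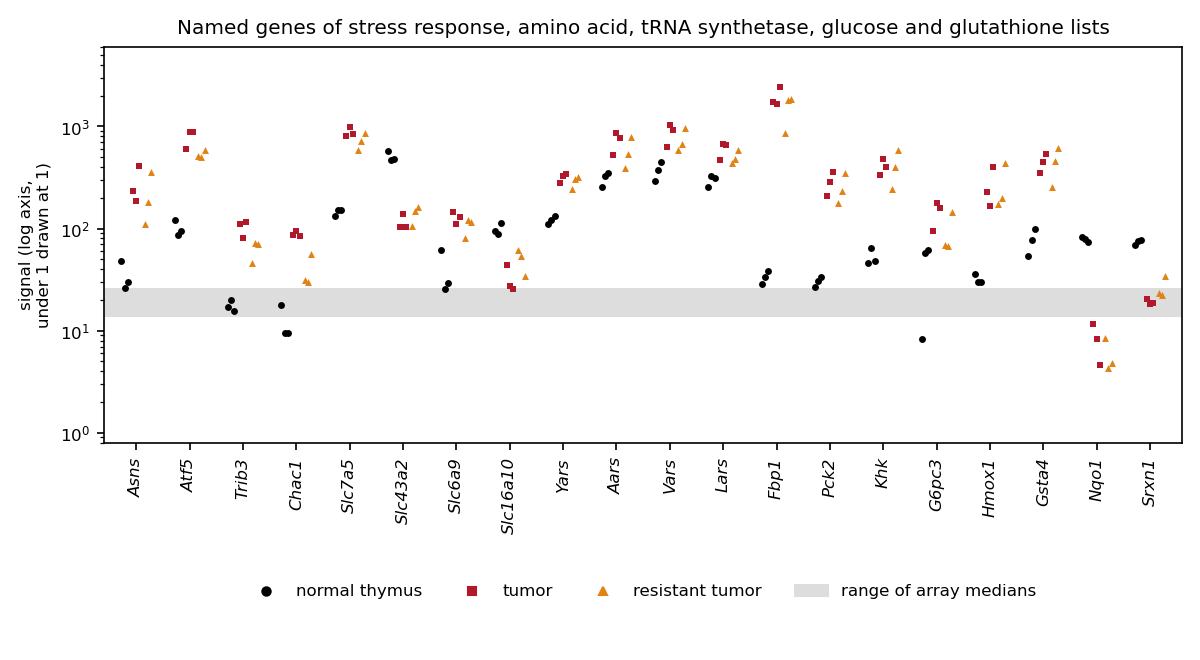
Signal on each array (log axis) of the named genes of 5 lists, from left to right the stress response, amino acid transporters, tRNA synthetases, glucose genes and glutathione genes, with symbols as in the plot of the largest changes. Slc43a2, Slc16a10, Nqo1 and Srxn1 lie lower in tumors than in normal thymus and the other 16 genes lie higher.

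Of 17 purine genes 10 were higher, 0 lower and 7 not called, with a median of 0.56. With equal array medians 3 were higher, and with the replicate block 11 were higher and 1 lower. Adk, which phosphorylates adenosine, rose from 368, 462 and 457 to 1005, 1099 and 994, and Aprt, which salvages adenine, from 390.1, 373 and 463 to 788, 1052 and 947. Pfas, a step of synthesis from the beginning, rose by 0.92 ± 0.11 and Adssl1 by 0.86 ± 0.20, 2 calls that did not pass with equal array medians. In the pyrimidine and deoxynucleotide list 10 of 18 were higher and 3 lower, with a median of 0.59 (3 higher and 1 lower with equal array medians). Dctd, a deaminase of deoxycytidylate, went from 30.2, 32 and 29.4 to 92.3, 103 and 106, Uck2, a uridine kinase, from 557, 717 and 815 to 1600, 2112 and 1747, and Cad, which starts pyrimidine synthesis, from 145, 170.3 and 172 to 488, 629.7 and 529. The 3 lower genes included Samhd1, which breaks down deoxynucleotides, at 157, 159 and 156 in normal thymus and 32.9, 28.9 and 35.1 in tumors (-2.29 ± 0.18, limma adjusted p = 1.03e-05). Dck (-0.99 ± 0.13) and Ctps2 (-0.91 ± 0.13), named here because the count was 3, were the others. In the polyamine list 4 of 11 were higher and 1 lower (2 lower with the replicate block), with Srm at 0.98 ± 0.12, Mtap at 0.98 ± 0.16, Odc1 at 0.69 ± 0.13 and the catabolic gene Sat1 at -0.57 ± 0.19, and none of these 4 calls passed with equal array medians. The call of Sat1 was also lost without any 1 of the arrays other than tumor 3.

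Mitochondrial genes shifted by smaller amounts. In the list of the tricarboxylic acid cycle and pyruvate entry 11 of 24 were higher and 1 lower (median 0.32, or 2 and 0 with equal array medians). Pcx, which turns pyruvate into oxaloacetate, rose from 60.2, 47.9 and 49.8 to 183, 209 and 202 (1.91 ± 0.18, limma adjusted p = 3.03e-05), and Suclg2, a subunit of succinate-CoA ligase, from 252, 196 and 209 to 733, 779 and 723. The next members moved less, Idh3a by 0.68 ± 0.12 and Pdk2 by 0.67 ± 0.20, neither called with equal array medians, and Pdk2 not called without normal array 2 or 3 or tumor array 2 or 3 either. The 1 lower gene was Sdhb (-0.35 ± 0.10). Among 19 genes of mitochondrial import and chaperones 11 were higher and 0 lower, with a median of 0.51 and 1 called with equal array medians. Timm9, a small carrier of the intermembrane space, was the gene that kept its call, rising from 38.3, 46.7 and 46.1 to 119, 94.8 and 116, followed by Timm8a1 (0.99 ± 0.19), Hspa9 (0.72 ± 0.11) and Pam16 (0.61 ± 0.09).

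Nuclear pore and transport genes gave 11 higher and 0 lower of 26, with a median of 0.33. With equal array medians 1 was higher, and with the replicate block 17 were higher and 1 lower. Xpot, the exporter of transfer RNA, rose from 264, 337 and 328 to 554, 661 and 657 (1.01 ± 0.12, limma adjusted p = 0.000177). The scaffold nucleoporin genes Nup93 and Nup205 both rose by 0.88, Nup93 from 272, 264 and 262 to 497, 494 and 477 and Nup205 from 385, 437 and 452 to 705, 792 and 849.7. Nup188 rose by 0.79 ± 0.22. Of these 4, Nup93 alone kept its call with equal array medians. CACGTG, the E-box bound by MYC and related factors, lay in the 250 bases before the start of 5 of the 11 higher genes (45.5%), 5 of 23 tested genes of the list (21.7%), 9.9% of all tested genes, 11.2% of those called higher, 8.6% of those called lower and 6.86% of the genes in the table. Each of the 5 windows is printed with the E-box in capitals.
Nup54: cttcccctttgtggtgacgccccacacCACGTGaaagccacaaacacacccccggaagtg
Nup93: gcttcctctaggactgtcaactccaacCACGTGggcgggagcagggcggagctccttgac
Nup188: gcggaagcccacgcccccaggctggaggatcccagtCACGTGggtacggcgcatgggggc
Ran: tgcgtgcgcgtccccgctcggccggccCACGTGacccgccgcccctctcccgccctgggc
Xpot: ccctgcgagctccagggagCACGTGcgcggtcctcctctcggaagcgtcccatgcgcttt

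They lie at chr5:92435267-92435326 (Nup54, minus strand), chr8:94214362-94214421 (Nup93, plus strand), chr2:30286356-30286415 (Nup188, plus strand), chr5:129020011-129020070 (Ran, plus strand) and chr10:121626523-121626582 (Xpot, minus strand). The E-box is its own reverse complement, and it contains ACGTG, which was also searched and lay before 25.2% of tested genes and 28.3% of those called higher. Nup188 had 2 matches, of which the nearer to the start is shown. Among the 11 lists searched the highest share of tested genes with the E-box was that of the lysosome, with 8 of 21 (38.1%), a list with 4 higher and 5 lower of 24. The share was 4 of 18 (22.2%) for mitochondrial import and 3 of 14 (21.4%) for tRNA synthetases. It was thus not particular to nuclear pore genes. Of the mitochondrial import genes called higher, 3 of 10 held it (30%), in windows not printed here.

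**Figure D4:**
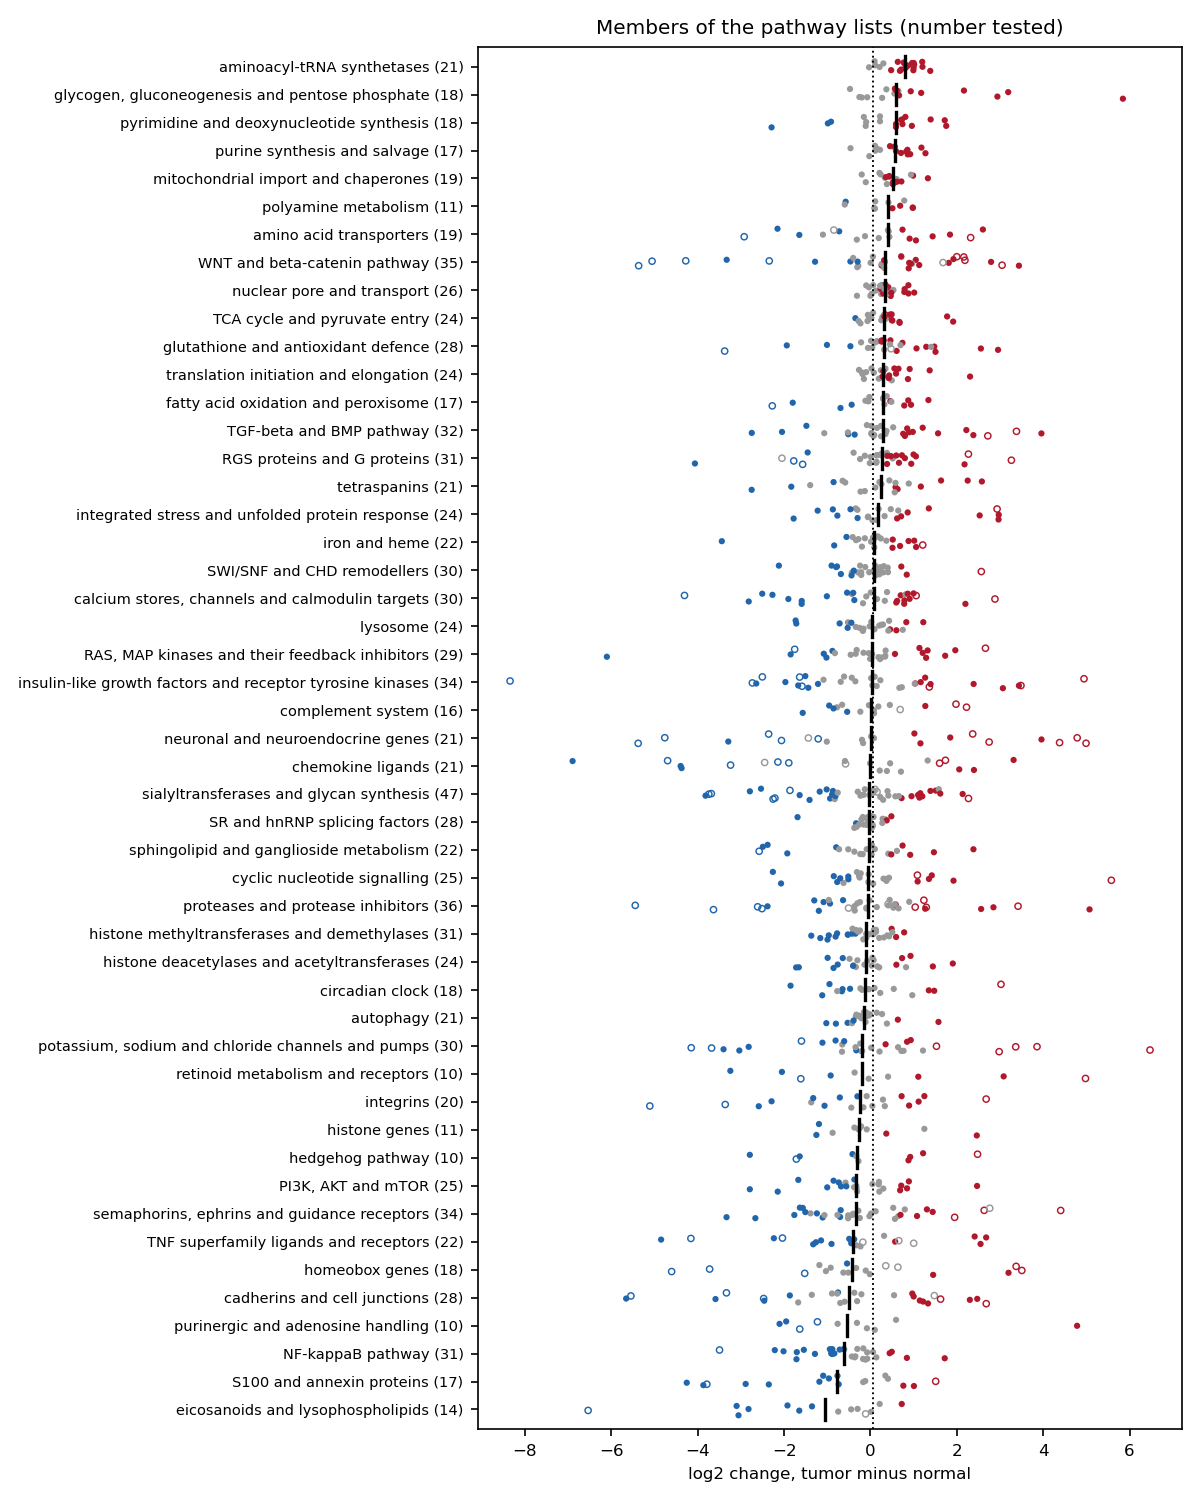
Log2 change (tumor minus normal) of every tested member of 49 lists, 1 row a list and 1 dot a gene, in red where called higher, blue where called lower and grey where not called, with open circles where 1 group was under the array median on all 3 arrays. Black bars are list medians and the dotted line is the median of all genes (0.05), and the tRNA synthetase list (0.80) lies to its right while the S100 (-0.76) and eicosanoid (-1.05) lists lie to its left.

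Redox genes split. In the glutathione and antioxidant list 12 of 28 were higher and 4 lower, with a median of 0.31. Hmox1, heme oxygenase, rose from 36.1, 30.3 and 30.2 to 228, 167 and 403 (2.95 ± 0.38, limma adjusted p = 0.000235), with tumor 3 highest, and Gsta4, a glutathione transferase, from 53.8, 77.2 and 99.4 to 353, 446 and 532. Nqo1, a quinone reductase, was at 82.7, 79.3 and 74.2 in normal thymus and dim in all tumors (11.6, 8.23 and 4.58), at least 4.51-fold lower. Srxn1, which reactivates peroxiredoxins, fell from 69.4, 74.8 and 76.6 to 20.5, 18.4 and 18.9. Hmox1, Nqo1 and Srxn1 are textbook targets of the transcription factor NRF2, whose part in these changes was not tested. The cystine carrier gene Slc7a11, chosen after its values were seen, was at least 2.55-fold lower.

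Iron and retinoid genes changed in both directions, with 45.5% and 70% of the tested members called, against 42.4% of all genes. Of 22 iron and heme genes 7 were higher and 3 lower (median 0.09). Slc40a1, the iron exporter, fell from 269, 288 and 271 to 22.6, 20.6 and 35.2, while Slc11a2, an iron importer, rose from 82.8, 57.9 and 63.6 to 134, 144 and 129. Tfrc, the transferrin receptor, was at 618, 519.5 and 515 in normal thymus and 1653, 1259 and 714 in tumors, and its call did not pass without any 1 of normal arrays 1 to 3 or tumor arrays 1 and 2. Alad rose by 0.88 ± 0.30, a call lost with equal array medians and without any 1 array other than tumor 1. Of 10 tested retinoid genes 3 were higher and 4 lower. Another 9 of the 19 on the array were under the filter, so the share called covers only the brighter members. Rdh10, which starts the synthesis of retinoic acid, rose from 100.3, 109.9 and 117 to 910.1, 984 and 873, and Dhrs3, which reduces retinal back to retinol, fell from 533, 491 and 513 to 63.6, 51.9 and 47.8. Cyp26b1, which degrades retinoic acid, changed by -2.05 ± 0.51, and Crabp1, a binding protein of retinoic acid, was at least 5.98-fold higher (4.12, 8.67 and 1.5 in normal thymus, 90.8, 229.7 and 80.2 in tumors).

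In the list of eicosanoid and lysophospholipid enzymes and receptors 7 of 14 genes were lower, 1 higher and 6 not called, with a median of -1.05, and 6 were lower with equal array medians. Hpgd, which inactivates prostaglandins, was at 331, 370.1 and 384 in normal thymus and 7.49, 2.05 and 3.84 in tumors, at least 20.7-fold lower. Receptor genes among the lower ones were Tbxa2r for thromboxane from 436, 537 and 598 to 60.5, 76.1 and 53, Lpar6 for lysophosphatidic acid from 914, 948 and 899 to 161, 119.8 and 114 and S1pr4 for sphingosine phosphate from 146, 164 and 164 to 35.1, 12.3 and 14.5. The 1 higher gene was Ptges2 (0.72 ± 0.20). Of 22 sphingolipid genes 5 were higher and 5 lower (22.7% each), near the 23.3% and 19.1% of all genes. Sgpl1 and Sphk1, which degrade and form sphingosine phosphate, fell by 2.38 ± 0.18 and 1.93 ± 0.29, Cerk, the ceramide kinase, fell from 506, 612 and 698 to 67.2, 133 and 136, and Cers4, a ceramide synthase, rose from 21, 22.6 and 21 to 75.6, 123 and 153.

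Fatty acid oxidation and purinergic genes gave a further 9 and 5 calls. Of 17 oxidation and peroxisome genes 5 were higher (8 with the replicate block) and 4 lower. Pex11a, a peroxisome proliferation factor, rose from 39.2, 38.4 and 36.7 to 109, 92.9 and 88.6 and Acaa2 by 0.94 ± 0.16 (not called with equal array medians), while Eci1 was at least 3.66-fold lower. Ehhadh changed by -1.80 ± 0.60, a call lost without any single array other than normal thymus 1. Of 10 purinergic genes 1 was higher (2 with the replicate block), Bst1, and 4 were lower. P2ry10 fell from 742, 611 and 488 to 193, 125 and 115, P2rx1 from 96.2, 142 and 139.9 to 44.3, 42.4 and 17.6 and P2rx7 by at least 1.8-fold, all 3 receptors of leukocytes, and P2ry14 was at least 1.68-fold lower, the last without a call under equal array medians.

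In the NF-kappaB list of 31 genes, 15 were lower and 4 higher, with a median of -0.61 (5 lower and 2 higher with equal array medians). Traf1, an adaptor and target of the pathway, was at least 5.62-fold lower, from 119.7, 87.5 and 90.1 to 15, 7.99 and 5.49. Relb, a subunit of the noncanonical dimer, fell from 55.8, 73.8 and 78.7 to 11.3, 20 and 14.3, and Birc3, an inhibitor of cell death, from 223, 325 and 364 to 60.1, 60.1 and 111. Nfkb2, the partner of RELB, went against them from 105, 116 and 121 to 319.6, 419 and 393 (1.72 ± 0.14, limma adjusted p = 1.21e-05). Nfkbia, the inhibitor that the pathway itself induces, fell from 2818, 2798 and 3020 to 692, 959 and 1035 and was picked after its values were seen. In the TNF superfamily 11 of 22 were lower and 4 higher (median -0.41). Fas, a death receptor, was at 153, 191 and 191 in normal thymus and 17.2, 4.58 and 12.4 in tumors, at least 10.2-fold lower. Tnfsf11, the ligand RANKL, rose from 16.6, 20.6 and 15.9 to 162, 124 and 71.1, and Tnfrsf21, another death domain receptor, from 56.2, 58.3 and 53.7 to 362, 324 and 301. The epithelial, B cell and myeloid marker sums were lower in the same arrays, and their part was not tested.

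**Figure D5:**
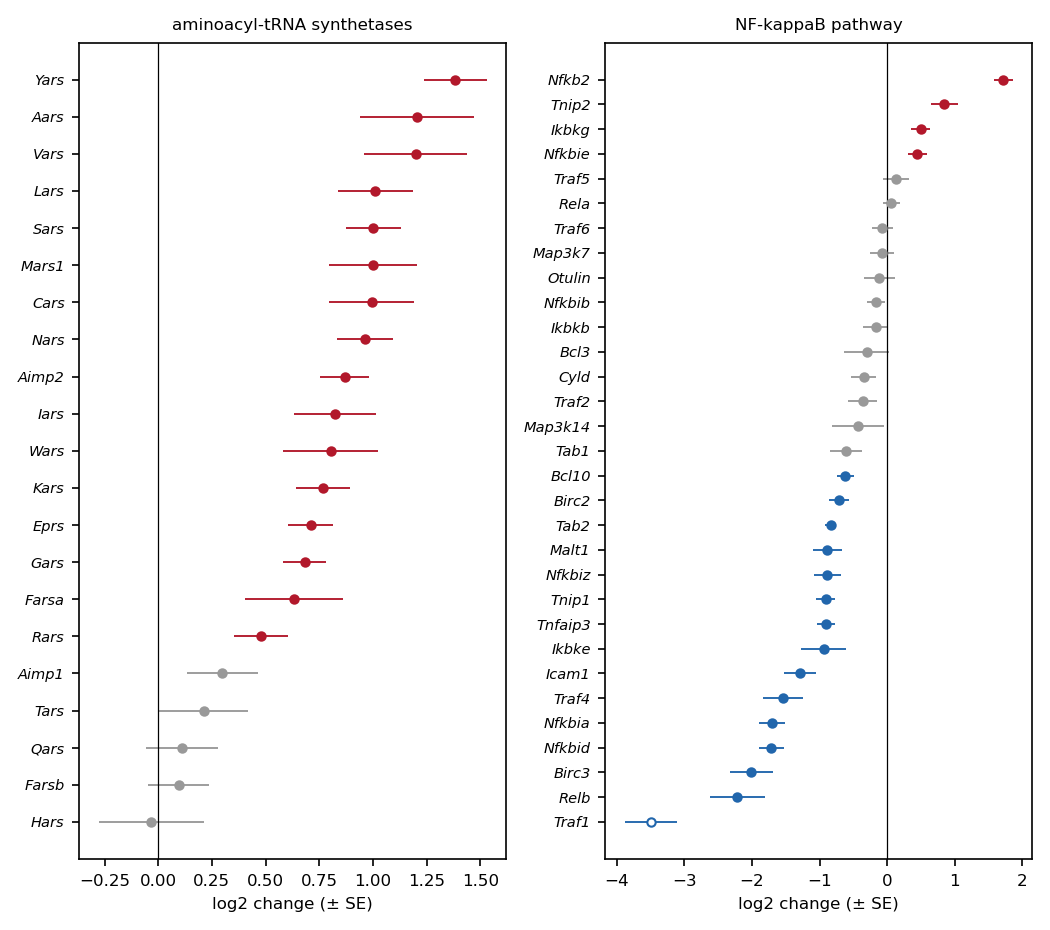
Log2 change (tumor minus normal, ± SE from limma, n = 3 arrays per group) of every tested member of 2 lists, with called increases in red, called decreases in blue and genes not called in grey. Open symbols had 1 group under the array median on all 3 arrays, and 16 of 21 tRNA synthetase genes are red while 15 of 31 NF-kappaB genes are blue.

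Kinase and phosphatase pathways had calls in both directions, as had all genes (23.3% higher and 19.1% lower). In the PI3K, AKT and mTOR list 9 of 25 were lower and 5 higher (median -0.33, or 3 and 1 with equal array medians). Pik3cd, the catalytic subunit of leukocytes, fell from 246, 271 and 296 to 57.2, 67.1 and 59.1 (-2.15 ± 0.14, limma adjusted p = 4.69e-06). Its regulatory partner Pik3r1 fell from 596, 610.5 and 546 to 216, 168 and 169, and Inpp5d, the phosphatase SHIP that counters it, from 242, 274 and 303 to 49.6, 34.4 and 35.4. Phlpp1, a phosphatase of AKT, rose from 53.6, 67.1 and 63 to 311, 335 and 368. Among 29 RAS and MAP kinase genes 8 were higher and 6 lower (27.6% and 20.7%), near the shares of all genes. Spred1 (90, 88.7 and 70.7 to 323, 244 and 262) and Rasal1 (46.4, 47 and 48.1 to 138, 221 and 204), both brakes on RAS, rose, and Dusp2, a MAP kinase phosphatase, fell from 268, 321 and 316 to 113, 70.1 and 73.5.

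Second messenger genes changed in both directions, as did all genes (23.3% higher and 19.1% lower). RGS and G protein genes were higher in 13 of 31 cases and lower in 4 (median 0.26), yet Rgs2, which shortens the signal of G proteins, fell from 231, 290.3 and 251 to 15.3, 16.7 and 14.1 (-4.06 ± 0.30, limma adjusted p = 8.2e-06). Rgs14 fell by 1.45 ± 0.13, Gng2 was at least 2.68-fold lower, and Rgs16 rose from 26.6, 15.5 and 6.12 to 87.7, 70.9 and 37.5. Of 25 cyclic nucleotide genes 6 were higher and 7 lower (24% and 28%). Pde9a, a phosphodiesterase of cyclic GMP, was dim in normal thymus (1.7, 3.66 and 5.61) and at 149.9, 159 and 159 in tumors, at least 7.86-fold higher, while Pde4d and Pde3b, which degrade cyclic AMP, fell from 327, 334 and 304 to 69.7, 77.5 and 83.1 and from 230.2, 387 and 313 to 87.6, 56.8 and 50.9. Prkar2a, a regulatory subunit of protein kinase A, rose from 90.4, 82.2 and 82.6 to 336, 299.7 and 332.

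Calcium genes were 11 higher and 11 lower of 30. Camk4, a calmodulin kinase of thymocytes, fell from 1072, 1041 and 1011 to 219, 203 and 139 (-2.51 ± 0.16, limma adjusted p = 4.19e-06), Camk1d from 240.0, 257 and 268 to 33.9, 44.3 and 31.3, and Trpm4, a calcium-activated channel, rose from 36.4, 24.3 and 22.1 to 97.9, 125 and 154. Camk2a changed by -2.27 ± 0.74, a call lost without any single one of the 6 arrays. Potassium, sodium and chloride channels and pumps were 8 higher and 10 lower of 30. Kcnh2, a voltage-gated potassium channel, fell from 236, 285 and 328 to 35, 27.4 and 19.5, Slc9a9, a proton exchanger of endosomes, from 283, 317 and 340.3 to 39.3, 36 and 39, and Kcnh3 from 134, 139 and 140.1 to 45.1, 13.5 and 12.2. Kcnk1, a leak channel, was close to the floor of 1 in normal thymus (0.963, 2.57 and 3.77) and at 233, 214 and 135 in tumors, at least 9.53-fold higher.

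The WNT pathway carries a secreted ligand through Frizzled receptors to beta-catenin, with Groucho proteins as nuclear corepressors. Of 35 genes 16 were higher and 8 lower, with a median of 0.34 (11 and 6 with equal array medians). Wnt4, a ligand, was at least 8.39-fold lower, from 116, 154 and 176 to 4.93, 0.963 and 9.08. Among receptors, Ryk rose from 28.7, 28.1 and 30.3 to 300.2, 307 and 336 (3.44 ± 0.12, limma adjusted p = 1.2e-07). Sfrp1, a secreted antagonist, fell from 139, 132 and 138 to 33.7, 6.57 and 11.2. Tle4, a Groucho corepressor, was at least 9.76-fold lower, from 129, 192 and 199 to 7.26, 6.3 and 2.94. In the hedgehog list 4 of 10 were higher and 4 lower, and its coreceptors did not move together, with Cdon up from 87.9, 111 and 90.1 to 216, 242 and 211, Gas1 down from 178, 144 and 144 to 30.7, 12.8 and 28.1 and Boc down by 1.64 ± 0.41. Gpr161, a receptor that restrains the pathway, was at least 2.3-fold higher.

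In the TGF-beta and BMP pathway list 12 of 32 were higher and 5 lower, with a median of 0.29 (8 and 2 with equal array medians). Inhbb, the beta B subunit of activin and inhibin, went from 31.6, 32.5 and 34.7 to 529, 488 and 516 (3.96 ± 0.18, limma adjusted p = 5.18e-07), with very little spread in either group. Tgfb3 was dim in normal thymus (15, 16.9 and 14.8) and at 134, 170.3 and 186 in tumors, at least 8.15-fold higher, and Bmp1, a protease that processes collagen and TGF-beta family members, rose from 18.4, 25.9 and 28.6 to 105, 148 and 124. Tgfbr3, the coreceptor betaglycan, fell from 222, 374 and 369 to 26.9, 46.5 and 81.1.

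Growth factor genes gave 10 higher and 11 lower of 34. Igfbpl1 was at least 13-fold higher (7.42, 8.28 and 9.5 in normal thymus, 202, 233 and 361 in tumors), and Igfbp3, a carrier of insulin-like growth factors, at least 9.56-fold higher (22.4, 17.2 and 12.7 and 109, 164 and 381), with tumor 3 above the other tumors. Fgf13 was under 1 on all tumor arrays (0.869, 0.331 and 0.141) against 280.4, 349.8 and 349 in normal thymus, at least 18.6-fold lower. The fibroblast and endothelial marker sum, whose members did not all rise, was higher in tumors and highest in tumor 3. Its part in these secreted factors was not tested.

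Chemokine genes changed in both directions. Of 21 genes 5 were higher and 7 lower (23.8% and 33.3%, against 23.3% and 19.1% of all genes). Ccl25, made by thymic epithelium to attract precursors, fell from 2000, 1865 and 2028 to 15.2, 15.1 and 19.5 (-6.90 ± 0.25, limma adjusted p = 1.59e-07). Cxcl12 fell from 1363, 1235 and 1252 to 44.7, 73.6 and 68.7 and Ccl5, made by activated lymphocytes, from 210.0, 313 and 358 to 17, 9.61 and 16.2. Ccl25 and Cxcl12 are themselves members of the lower epithelial marker sum. Ccl8, which attracts monocytes, rose from 89.3, 53.8 and 56.5 to 561, 668 and 711. Ccl2 (at least 1.34-fold), Ccl7 (6.33, 3.87 and 4.91 to 16, 10.4 and 26.6, with no bound above 1), Cxcl13 (2.06 ± 0.43) and the platelet chemokine Pf4 (59, 44.4 and 45.7 to 204, 237 and 360.5) were the other 4 higher genes. Of the 6 tested platelet markers Pf4 was the only one called. The changes of Itga2b, Gp1bb, Vwf, Treml1 and Selp lay between -0.73 and 0.21. The summed platelet marker signal, which includes Pf4 itself, was 159 to 300 in normal thymus and 337 to 501 in tumors. In the complement list 3 of 16 were higher and 4 lower, with Clu at -1.57 ± 0.28 and C3ar1, an anaphylatoxin receptor, at least 2.94-fold higher.

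Proteases and their inhibitors were 9 higher and 10 lower of 36 (25% and 27.8%, against 23.3% and 19.1% of all genes). Adamts20, a secreted metalloprotease, rose from 11.7, 18.8 and 17 to 487, 649.7 and 446, Timp1 from 29.1, 13.7 and 12.7 to 80.3, 129 and 181 and Timp3 from 102, 84 and 75.5 to 545, 531 and 458. Both Timp genes encode inhibitors of matrix metalloproteases. Mmp3 itself was at least 6.35-fold higher (13.1, 11.4 and 11 and 109.9, 181 and 101). Of 17 S100 and annexin genes 10 were lower and 3 higher, with a median of -0.76 (4 lower and 1 higher with equal array medians). S100a8 and S100a9, which form calprotectin in neutrophils, fell from 329, 433 and 421 to 65, 16 and 8.28 and from 161, 223 and 227 to 46.4, 8.88 and 6.36, with tumor 1 highest in both. S100a1 fell from 265, 320.5 and 296 to 41.3, 41.5 and 36, and S100a10, an annexin partner, from 912, 1029 and 1163 to 113, 195 and 370.4, which was not called with equal array medians. S100a8 and S100a9 are themselves members of the lower dendritic, macrophage and neutrophil marker sum. The part of neutrophil number in their fall was not tested.

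Of 20 integrin genes 8 were lower and 5 higher. Itgal and Itgb2, which pair as LFA-1, fell from 1395, 1336 and 1253 to 214, 203 and 249 and from 1226, 972 and 1069 to 196, 208 and 267. Itga4 was at least 25.2-fold lower (448, 429 and 441 and 14.9, 9.97 and 13.9) and Itgae, which binds E-cadherin, at least 6.71-fold. The 5 higher genes, named because they were 5, were Itga3 (0.72 ± 0.21), Itgb1 (0.89 ± 0.20), Itga5 (1.11 ± 0.35), Itgb4 (1.25 ± 0.37) and Itga9 (at least 3.11-fold), of which Itga3, Itga5 and Itgb4 were not called with equal array medians. In the cadherin and junction list 9 of 28 were higher and 8 lower. Besides Dsp, Perp, a desmosome gene, fell from 159, 204 and 201 to 52.3, 12.2 and 5.87 and Cldn4, a claudin, from 77.3, 72.2 and 77.1 to 15, 17.4 and 9.9, while Gjb2, a gap junction connexin, rose from 19.4, 20.2 and 16.5 to 103, 82 and 131. The epithelial marker sum, which includes Cldn4 itself, was lower in the same arrays, and its part was not tested.

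Tetraspanins and glycan enzymes had calls in both directions, as had all genes (23.3% higher and 19.1% lower). Of 21 tetraspanins 6 were higher and 3 lower (5 lower with the replicate block). Cd9 rose from 68.3, 103 and 99.9 to 424, 340.3 and 526 (2.25 ± 0.20, limma adjusted p = 2.3e-05) and Tspan33 from 21.6, 18.8 and 19.1 to 83.2, 146 and 136, while Tspan2 fell from 118, 118 and 117 to 18.8, 15.3 and 18.5. Cd53, of leukocytes, changed by -1.83 ± 0.36 and was not called with equal array medians. Of 47 glycan genes 11 were higher and 16 lower (23.4% and 34%), with a median of -0.03 that became 0.16 with equal array medians. St6gal1, which caps glycans with sialic acid, fell from 297, 404 and 437 to 24.4, 20.4 and 37.6, St8sia1, which makes the ganglioside GD3, from 462, 509 and 520.5 to 80.1, 111 and 71, and Man1a, a trimming mannosidase, from 397, 378 and 319 to 49, 47.1 and 62.4. St3gal6 was at least 6.93-fold lower. In the semaphorin, ephrin and guidance list 7 of 34 were higher and 10 lower. Sema4a fell from 174, 132 and 133 to 6.2, 16.6 and 29.3, Sema4b from 126, 124 and 128 to 18.4, 22.7 and 18.8 and the receptor Plxnd1 from 710.0, 818 and 840.4 to 180.1, 287 and 242, and Slit3 was at least 6.33-fold higher.

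Histone methyltransferases and demethylases were lower in 10 of 31 cases and higher in 3 (6 with the replicate block), with a median of -0.10 that became 0.09 with equal array medians (2 lower, 0 higher). Phf8 fell from 227, 248 and 239 to 99.8, 92.5 and 84.5 (-1.37 ± 0.14, limma adjusted p = 5.02e-05), Kdm4c by 1.16 ± 0.23, Kmt5b by 0.99 ± 0.20 and the X-linked demethylase Kdm6a from 326, 278 and 272 to 179, 138 and 134, of which Kmt5b and Kdm6a lost their calls with equal array medians. Histone deacetylases and acetyltransferases were 5 higher and 7 lower of 24. Hdac6, a cytoplasmic tubulin deacetylase, rose from 89.7, 89.2 and 120.3 to 281, 451 and 400.2 and Kat2a, the acetyltransferase GCN5, from 261, 287 and 312 to 686, 940.4 and 730.3. Hdac10 fell from 136, 189 and 180.5 to 41.5, 60.5 and 51.7 and Hdac7, a thymocyte deacetylase, from 864, 935 and 1064 to 207, 376 and 349.9 (not called with equal array medians).

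Remodellers and histones were called in 33.3% and 36.4% of cases, against 42.4% of all genes. Smarca2, one of the 2 alternative ATPases of the SWI/SNF complex, fell from 357, 264 and 246 to 70, 66.5 and 60.6, in a list with 3 higher and 7 lower of 30. Arid1b (-0.90 ± 0.15), Bcl7b (-0.79 ± 0.19) and Bcl7a (0.84 ± 0.15) were called in the main scaling and not with equal array medians. Macroh2a2, a macroH2A variant of silent chromatin, rose from 20.1, 20.4 and 16.9 to 132, 90.7 and 96.5 (2.46 ± 0.20, limma adjusted p = 1.64e-05). The other 3 called of 11 histone genes were H2bc21 (-1.25 ± 0.12), H2aw (-1.19 ± 0.19) and H2az1 (0.37 ± 0.09), none called with equal array medians.

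Homeobox, clock and neuronal genes changed in both directions, many of them from a dim group. Of the tested members 44.4%, 50% and 71.4% were called, against 42.4% of all genes. Under the filter were 22 of 40 homeobox, 3 of 21 clock and 20 of 41 neuronal genes on the array. A gene dim in 1 group could pass through the arrays where it was brighter. These shares are therefore no measure of how often such genes change. Of 18 tested homeobox genes (of 40 on the array) 4 were higher and 4 lower. Pbx3 rose from 33.9, 41.4 and 41.3 to 349, 404 and 317 and Lhx2 was at least 5.55-fold higher (14.5, 11 and 7.56 and 145, 105 and 88.5), whereas the PBX partner gene Meis2 was at least 3.62-fold lower. Six5 rose by 1.45 ± 0.29. Clock genes were 3 higher and 6 lower of 18, and Nfil3 was at least 3.6-fold higher while Cry2 rose by 1.35 ± 0.23 and Per2 by 1.48 ± 0.35, and the time of day of sampling is not given. Nr1d1 changed by -1.85 ± 0.55, a call lost with equal array medians and without normal array 2 or 3 or tumor array 1 or 3. Of 21 neuronal and neuroendocrine genes 9 were higher and 6 lower. Bex1 was bright in tumors, from 179, 249 and 249 to 3868, 3404 and 3172 (3.96 ± 0.15, limma adjusted p = 1.61e-07). Tubb2b, a neuronal tubulin, fell from 1129, 754 and 727 to 104, 82.3 and 76.9, and Ncam1 and Olfm1 were at least 8.76-fold and 5.68-fold higher.

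Lysosome and autophagy genes were called in 37.5% and 28.6% of cases, against 42.4% of all genes. Lipa, the acid lipase, fell from 854, 851 and 945 to 239.9, 279 and 279.8 and Ctsl, a protease that also acts in antigen presentation by thymic epithelium, from 3059, 2617 and 2752 to 961, 582 and 1109, while Gaa, the acid glucosidase, rose from 119.9, 116 and 111 to 243, 292 and 276 and Neu1 by 0.83 ± 0.20 (not called with equal array medians). Ctsl is also a member of the lower epithelial marker sum. Autophagy genes were 2 higher and 4 lower of 21, with a median of -0.15 that became 0.03 with equal array medians. Bnip3, which removes mitochondria, rose from 117, 153 and 160.0 to 348, 366 and 592. Rb1cc1 fell by 1.02 ± 0.17, Gabarapl2 fell by 0.80 ± 0.14 and Wipi2 rose by 0.63 ± 0.17, 3 calls that did not pass with equal array medians.

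Markers of tissues that lie next to the thymus or enter it with blood were measured as well. Of 11 adipocyte markers 5 were lower and 0 higher. Adipoq, which encodes the fat hormone adiponectin, went from 52, 93.7 and 74.9 to 3.36, 17.4 and 2.83, Car3 from 409, 436 and 418 to 49.2, 179.6 and 32.4 and Thrsp from 67, 107 and 104 to 1.32, 4.7 and 4.04, at least 5.2-fold lower. Lpl changed by -1.57 ± 0.51, a call lost with equal array medians and without any 1 of the normal arrays or tumor 1. Pth, the parathyroid hormone gene, was at 84.5, 96.2 and 103 in normal thymus and dim in all tumors (7.27, 0.531 and 1.78), at least 5.4-fold lower. Of the other lists, erythroid markers gave 2 lower of 3 (Alas2 and Car2), mast cell markers 2 lower of 4 (Cpa3 and Hdc), muscle markers 1 lower of 15 (Mylpf, and 3 lower with the replicate block) and Schwann cell markers 1 lower (Egr2) and 1 higher (Cnp) of 5. The call of Hdc was lost without normal array 2 or 3, and that of Cnp without any 1 array other than tumor 1. Under the filter were 9 of 12 erythroid, 7 of 11 mast cell and 6 of 11 Schwann cell markers on the array. So were 5 of 6 thyroid and parathyroid markers, all except Pth. The few members tested are therefore no readout of these cell types. The summed signal of 16 adipocyte markers was 2306 to 2637 in normal thymus and 1237 to 2017 in tumors, and that of 20 muscle markers 1076 to 1103 and 323 to 1074.

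Probe sets of 1 gene rarely went in opposite directions. Of 1486 genes with at least 2 called probe sets, 1456 had all of them on 1 side and 30 (2.02%) did not, where 19.6% of all 20917 probe sets were called higher and 16.3% lower. That count of 30 was 12 without normal array 2, 11 without normal array 3, 16 without tumor array 2, 17 without tumor array 3, 46 with the replicate number as a block and 3 with equal array medians. In Ip6k2 the probe set with the higher signal fell from 529, 559 and 453 to 328, 233 and 225 while the other rose from 66.8, 74.9 and 71.9 to 144, 148 and 136. Brd8 likewise fell in 1 probe set (700, 719 and 780 to 420, 542 and 579) and rose in another (28.0, 40.7 and 33.5 to 88.9, 80.9 and 90.4). Stk24, chosen after its values were seen, had 2 probe sets of similar brightness, 421, 404 and 520 to 774, 998 and 720 in 1 and 408, 508 and 498 to 242, 275 and 322 in the other. Rprd1a (1.02 and -0.81), Cds2 (1.26 and -1.15), Ppp2r5c (0.99 and -1.77), Ndufs4 (0.66 and -1.71) and Cfp (0.85 and -0.96) had opposed calls with measured signal on both sides. In Klk1, Tbc1d1 and Erc1 the falling probe set was under the array median on all tumor arrays. For the last 3 and Ip6k2, averaging the probe sets turned the sign of the gene's change. The parts of the transcripts that the probe sets match were not analysed here.

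Chromosomes differed little. Median changes by autosome lay between -0.09 (chromosome 3) and 0.15 (chromosome 19), and the former became 0.10 with equal array medians. Per autosome, 18.5% to 27% of the genes were called higher. Along the gene order, 224 windows of 50 tested genes had medians from -0.47 to 0.57. The highest window, on chromosome 2 from Fcna to Med27, had 26 higher and 3 lower genes, and the lowest, on chromosome 6 from Parp11 to Mgst1, had 5 higher and 20 lower. Both were of the same sign within the arrays without (0.55 and -0.64) and with spike-ins (0.51 and -0.44). These 2 windows were picked for their extreme medians and carry no test.

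Resistant tumors were compared with tumors directly, since their comparisons with normal thymus share the normal arrays. The direct test of resistant tumor against tumor called 42 of 11671 genes (0.36%), and among the genes named here it called 4. Inhbb was at 170.3, 193 and 119 in resistant tumors, below every tumor array, and Nfkb2 at 188, 184 and 211, also below every tumor array. Tubb2b was at 307, 216 and 329.9, between tumors and normal thymus, and Thrsp at 60.9, 28.2 and 25.7. Rnd2, not called in this test, had resistant tumor signals of 904, 2014 and 778, and Fbp1 had 859, 1823 and 1876.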

How the data were processed

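The deposited intensity values are linear MAS5 signals of whole-genome mouse expression arrays, made by the authors per the submitters' processing notes, which give no MAS5 version. The 45101 probe sets include 64 control rows. On tumor 1 the control rows stand in another order (correlation with the mean of the other arrays -0.29, and 0.91 after sorting by row name). Of several orders tried, the one with the highest correlation was kept, so the 0.91 is no independent check of it. Control rows were not themselves tested. The poly-A rows, sorted on tumor 1, defined the spike-in sets used in some alternatives. Symbols came from the platform annotation (34945 probe sets with 1 symbol, 932 with several, the rest with none, unnamed here).

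The log2 scale was used after raising signals below 1 to 1. Probe sets at or above the median of their array on at least 3 of 9 arrays were kept, and the brightest probe set stood for a gene. All 9 arrays entered 1 limma fit (limma 3.58.1, R 4.3.3, intensity trend, 6 residual degrees of freedom), with Benjamini-Hochberg adjustment over 11671 genes and a threshold of 0.05. Figures used Python 3.11.15, pandas 2.3.3 and matplotlib 3.10.9. The number of arrays, 3 per group, limits the precision.

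The members and gene lists were chosen with earlier results of these data known. Named genes were the 15 largest increases and decreases outside the thymic tissue lists whose groups did not overlap, up to 4 called members per list, and up to 10 genes with opposed probe sets, passing over provisional symbols without replacement, which left 14 increases. Others are said to be chosen after their values were seen. The results of 1 signalling list are not reported here. The labels give replicate numbers. Deviations from the group means of same-numbered normal and tumor arrays correlated at 0.65, 0.37 and 0.41, all over the 0.1 set as the rule for giving a fit with the number as a block. Differently numbered arrays 2 and 3 correlated as well (0.45 for normal 3 with tumor 2 and 0.36 for normal 2 with tumor 3). The arrays numbered 1 are also those without spike-in signal, so pairing by number and spike-in set cannot be told apart, and the labels do not say what a number marks.

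Alternatives were quantile normalization, equal array medians, an offset of 50, no filter, a 75th percentile filter, a fit without the trend, averaged probe sets, 6 arrays only, replicate or spike-in blocks, each spike-in set alone, and leaving out each array.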

Additional observations from a re-analysis of the deposited data

Results flagged for a closer look

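In 4 named genes the change against normal thymus differed between tumor and resistant tumor by the direct limma contrast of resistant tumor against tumor, a test that called 0.36% of all genes. Inhbb differed by -1.70 on the log2 scale (limma adjusted p = 0.00553), with signals of 511 ± 20.8 in tumors and 161 ± 38.1 in resistant tumors (SD, n = 3), and a normal mean of 32.9. Nfkb2 differed by -0.95 (limma adjusted p = 0.0213), at 377 ± 51.5 and 194 ± 14.5. Both genes were lower on all 3 resistant arrays than on any tumor array. Tubb2b differed by 1.68 (limma adjusted p = 0.0134), at 87.8 ± 14.4 and 284 ± 60.5. Thrsp, an adipocyte marker under the array median on all tumor arrays, differed by a fitted 3.59 that is no measure of fold (limma adjusted p = 0.0271), at 3.35 ± 1.79 and 38.2 ± 19.6. The summed adipocyte marker signal was 1237 to 2017 in tumors and 1729 to 2789 in resistant tumors, and its part in the Thrsp value was not tested.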

How the results depend on the processing

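The 4943 calls became 2256 (1266 higher, 990 lower) with equal array medians, and the lower calls became 1445 with the 75th percentile filter, which tested 7582 genes. Without 1 array there were 3878 to 5064 calls, 2137 to 2802 higher and 1696 to 2262 lower. The other alternatives stayed within 1.5 times. Of 243 named genes, 53 lost their call with equal array medians, 6 with quantile normalization, 10 with no filter, 7 with no intensity trend, 7 with the mean over probe sets and 7 to 14 without 1 array. The mean over probe sets turned the sign of Klk1 (-2.50), Tbc1d1 (-0.77), Erc1 (-0.64) and Ip6k2 (0.0078). The 30 genes with opposed probe sets became 3 with equal array medians, 12 with the 75th percentile filter, 116 with a spike-in block, 106 within the arrays with spike-ins and 11 to 29 without 1 array. The cause was not tested. The arrays without spike-ins hold 1 array per group and give values with no test, and 102 of the 243 changes moved there by more than the spread, none with a turned sign.

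With the replicate block, which treats arrays of the same number as pairs, 5967 genes were called, among them 4940 of the 4943, and 46 genes had opposed probe sets. It changed the call of none of the 243 named genes. The count of higher or of lower members moved by over 1.5 times in 9 of 50 pathway lists.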
